A study of Mus musculus with 5 samples.

Results

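The genes described here are 37 genes of the red cell lineage: embryonic and adult globins, enzymes of heme synthesis, proteins of the red cell membrane, transcription factors of the lineage, and genes of iron handling and signalling. The rule lists them by symbol. A gene was measured through probe sets annotated to its symbol alone, all of them for globins and otherwise the one with the highest mean signal over the arrays. This gave 34 of the 37 genes and 39 probe sets, 11 of them for globins, out of 45037 probe sets and 18193 genes tested. Hbb-b1, Ahsp and Epb41 had no such probe set and were not analysed here.

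RNA came from dorsal pancreatic buds of C57BL/6J mouse embryos at E10.5, taken after matings of Ptf1a heterozygous parents, with the surrounding mesenchyme removed by dissection. Some mesenchyme markers were still above background on all arrays, as given further on. Ptf1a encodes a basic helix-loop-helix factor of the pancreas, and the labels do not say how its allele was inactivated. Each array received amplified RNA from a pool of 3 buds, with 3 arrays for Ptf1a null buds and 2 for Ptf1a heterozygous buds, the control group, which itself lacks 1 working copy. No wild-type buds were compared. The labels do not tie pools to litters, so p-values measure only the spread between these pools.

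Red cells of the midgestation mouse embryo are mostly primitive erythrocytes. They arise in the yolk sac, enter the circulation still nucleated, and carry globin mRNA into every vascularised organ. The embryonic β-like chains come from Hbb-y and Hbb-bh1 and the embryonic α-like chain from Hba-x, and primitive cells also make adult α-globin. Heme is built by a chain of enzymes that starts in erythroid cells with Alas2, and Gata1, Tal1 and Klf1 switch on globin, heme and membrane genes together. Blood held in the vessels of a dissected bud adds red cell RNA to the sample. In pooled tissue, fewer red cells and less RNA per cell cannot be told apart.

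Signals are normalised log2 values, and a difference is the null mean minus the heterozygote mean on that scale. Adjusted p-values come from limma, adjusted across the 45037 probe sets by the Benjamini-Hochberg method, with 0.05 as the threshold. The plain fit is called untrended, and a fit whose prior variance follows the signal level is called trended. Control probe sets for bacterial genes gave each array a background level, which lay between 3.03 and 3.29. Between 60.9% and 65.1% of probe sets lay above it.

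The targeted gene, Ptf1a (probe set 1419424_at), gave 7.10 and 7.33 in heterozygotes and 5.21, 6.07 and 5.00 in nulls, above background throughout and lower on every null array (difference -1.79, SE 0.47, limma untrended adjusted p = 0.651). The missing stretch of the Ptf1a gene is unstated in the labels, and whether this probe set lies in it was not tested. All 11 markers of bud epithelium, among them Pdx1, Krt8 and Gcg, were above background on all 5 arrays. Across all probe sets the arrays correlated at 0.838 to 0.862.

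As examples of where red cell motifs lie in these genes, the 250 bases before the annotated start are printed for the embryonic globins Hbb-y and Hba-x, for an adult α-globin, and for Alas2 and Ermap, which had no overlap between genotypes in the values given further on. They are RefSeq sequences of build GRCm38.p6, written 5′ to 3′ on the gene's own strand. Capitals mark matches on either strand to GATAA, the core bound by GATA factors, to CCACCC, the core of the box bound by Klf1, to CCAAT and to TATAA.
Hbb-y, chr7:103853208-103853457, minus strand: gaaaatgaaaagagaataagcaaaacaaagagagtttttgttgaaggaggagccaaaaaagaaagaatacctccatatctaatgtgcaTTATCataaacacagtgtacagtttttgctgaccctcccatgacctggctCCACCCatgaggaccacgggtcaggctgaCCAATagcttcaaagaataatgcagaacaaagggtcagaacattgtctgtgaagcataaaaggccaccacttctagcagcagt
Hba-x, chr11:32276350-32276599, plus strand: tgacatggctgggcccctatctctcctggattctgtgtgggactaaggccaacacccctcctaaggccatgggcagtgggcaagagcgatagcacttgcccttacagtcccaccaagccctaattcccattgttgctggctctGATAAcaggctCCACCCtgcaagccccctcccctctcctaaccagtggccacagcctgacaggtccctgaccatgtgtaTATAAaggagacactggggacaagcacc
Hba-a1, chr11:32283422-32283671, plus strand: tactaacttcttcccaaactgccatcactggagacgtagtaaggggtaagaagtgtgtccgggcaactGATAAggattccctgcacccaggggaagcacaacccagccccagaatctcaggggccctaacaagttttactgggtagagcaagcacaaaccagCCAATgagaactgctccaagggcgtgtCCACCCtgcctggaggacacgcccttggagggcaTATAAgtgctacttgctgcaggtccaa
Alas2, chrX:150547167-150547416, plus strand: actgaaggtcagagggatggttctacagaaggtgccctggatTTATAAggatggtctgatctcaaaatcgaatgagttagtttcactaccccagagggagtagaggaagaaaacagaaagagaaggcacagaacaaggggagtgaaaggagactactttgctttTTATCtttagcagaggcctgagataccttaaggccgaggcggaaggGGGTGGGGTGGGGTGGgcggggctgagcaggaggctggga
Ermap, chr4:119189996-119190245, minus strand: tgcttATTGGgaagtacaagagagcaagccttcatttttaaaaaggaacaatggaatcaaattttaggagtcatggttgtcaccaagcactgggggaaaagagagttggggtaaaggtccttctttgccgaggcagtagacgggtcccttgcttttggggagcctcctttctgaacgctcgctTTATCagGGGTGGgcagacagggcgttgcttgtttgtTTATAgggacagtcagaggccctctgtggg

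Each of these 5 windows, which are examples and not typical of the list, held both a GATAA and a CCACCC match. In Hba-x the GATAA match stood 107 bases and the CCACCC match 96 bases before the start, with TATAA at 28 bases. In Ermap the GATAA match stood at 67 bases and the CCACCC match at 60. In Hbb-y they stood at 162 and 112 bases, and in Hba-a1 at 182 and 61. Alas2 had 1 GATAA match at 86 bases and then 3 overlapping CCACCC matches at 40, 35 and 30 bases.

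The RefSeq table held 33 promoters of 26 of the 37 genes, Epb41 among them although it was not measured. GATAA was present in 17 (51.5%), against 22.6% of all 32851 promoters of the same length. CCACCC was present in 16 (48.5%, against 28.1%), CCAAT in 17 (51.5%, against 33.8%) and TATAA in 8 (24.2%, against 22.8%). The longer form AGATAA was present in 7 (21.2%, against 9.99%). AGATAA matches are also GATAA matches. Both GATAA and CCACCC were present in 10 of the 33 (30.3%, against 5%). Gata1 had no GATAA match, and Cpox and Uros had no CCACCC match. Some genes have several annotated starts, and a match is a run of letters, not a measured binding site.

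The embryonic globins had a lower mean in nulls at all 7 of their probe sets, with differences of -0.063 to -1.31. At 5 of the 7 the nulls lay wholly below the heterozygotes. That order was found for 10.1% of all genes, each taken at its brightest probe set. The probe sets of 1 globin read the same transcript, so they are not independent, and none of the 7 passed adjustment in either fit.

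Hba-x, the embryonic α-like globin (probe set 1448716_at), gave 8.68 and 9.10 in heterozygotes and 7.93, 7.30 and 7.52 in nulls. The lower heterozygote stood clear of the highest null. Heterozygotes averaged 8.89 ± 0.29 (SD, n = 2) and nulls 7.58 ± 0.32 (SD, n = 3), 2.47-fold lower (difference -1.31, 95% confidence interval -2.33 to -0.28 in the untrended fit). Its limma adjusted p was 0.779 untrended and 0.318 trended. Leaving out either heterozygote or any null kept the difference between -1.10 and -1.51.

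Hbb-bh1, an embryonic β-like globin, had 11.59 and 12.08 in heterozygotes and 11.29, 10.83 and 10.96 in nulls at its brightest probe set, 1437810_a_at. These groups did not overlap (difference -0.81, SE 0.38, 1.75-fold lower, limma untrended adjusted p = 0.958 and trended 0.36). Its second probe set, 1437990_x_at, gave -0.79, again without overlap, and -0.50 without heterozygote replicate 2. At the third, 1450736_a_at, null replicate 1 (10.09) lay just above heterozygote replicate 1 (10.05), and the difference was -0.95, or -0.62 without heterozygote replicate 2.

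Hbb-y, the other embryonic β-like globin, differed between probe sets. At 1450621_a_at the signals were 10.93 and 11.67 in heterozygotes and 10.48, 10.48 and 10.30 in nulls (difference -0.88, SE 0.40, limma untrended adjusted p = 0.947). The groups did not overlap there, and without heterozygote replicate 2 the difference was -0.51. At 1436717_x_at and 1436823_x_at, ranked 14 and 17 by mean signal among all probe sets, the differences were -0.063 (SE 0.33) and -0.12 (SE 0.33), and the 5 arrays spanned 12.46 to 12.70. The first of these had overlapping groups and turned to 0.028 without heterozygote replicate 2. With median centring 1436717_x_at and 1436823_x_at gave -0.24 and -0.27, and with no normalisation -0.29 and -0.31. In the same settings 1450621_a_at gave -1.09 and -1.13. Whether quantile normalisation narrows differences this near the top of the signal range was not tested.

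As a share of all signal on the deposited linear scale, the 7 embryonic globin probe sets took 0.485% and 0.638% on the heterozygote arrays. On the null arrays they took 0.432%, 0.417% and 0.384%. Both heterozygotes were above every null, and the 2 heterozygotes differed from each other more than heterozygote replicate 1 differed from null replicate 1.

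**Figure D1:**
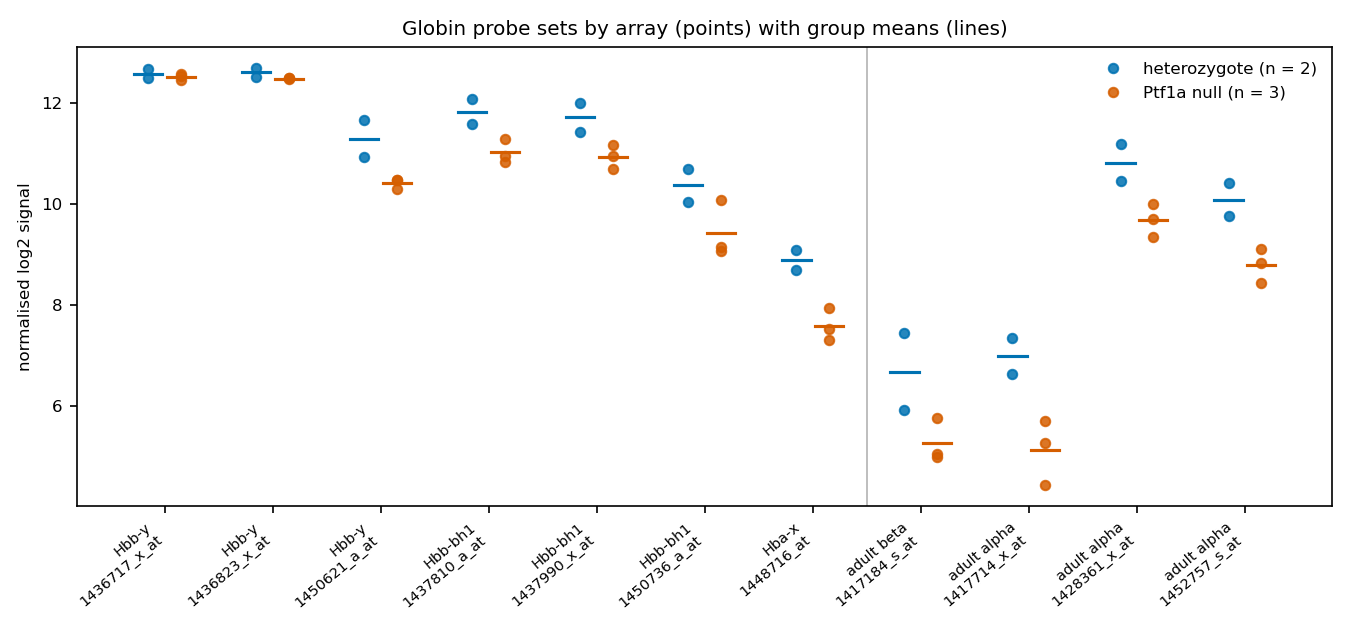
Normalised log2 signal (vertical axis) of the 7 embryonic globin probe sets and, right of the grey line, 4 probe sets shared by adult globin genes. Blue points are the 2 heterozygote arrays, orange points the 3 null arrays, and short lines the group means. The groups do not overlap for Hba-x or for any shared adult probe set, while the 2 brightest Hbb-y probe sets lie close together.

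Adult globins were barely covered by probe sets of a single gene. Hba-a1 (1453574_at) and both probe sets of Hbb-b2 (1427865_at and 1427866_x_at) were not above background on any array, so no fold is given for them. Hba-a2 (1427219_at), encoding an adult α chain, had 4.38 and 5.18 in heterozygotes and 3.65, 4.95 and 4.79 in nulls, with overlapping groups (difference -0.32, SE 0.58).

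Brighter probe sets exist that are annotated to several adult globin genes at once. They fall outside the rule, and no single gene can be named for them. At 1428361_x_at, shared by adult α-globin genes, the signals were 10.45 and 11.18 in heterozygotes and 9.99, 9.71 and 9.34 in nulls. At 1452757_s_at, of the same genes, they were 9.76 and 10.42 against 9.12, 8.82 and 8.44 (difference -1.29, SE 0.43, limma trended adjusted p = 0.254). A further α probe set, 1417714_x_at, differed by -1.85, and the adult β probe set, 1417184_s_at, by -1.42. All 4 put every null below both heterozygotes (100%, against 10.1% of all genes). The α probe sets read transcripts of the same genes, so the 4 are not independent readings. Without heterozygote replicate 2 their median difference was -0.87, against -1.36 on all arrays, and without heterozygote replicate 1 it was -1.90.

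Of the 7 heme synthesis genes, 5 had a lower and 2 a higher mean in nulls, and none passed adjustment. Their median difference was -0.30, and -0.17 without heterozygote replicate 2. Alas2, the erythroid enzyme that starts the pathway, gave 6.41 and 7.21 in heterozygotes and 6.22, 4.56 and 5.79 in nulls. Every null was below both heterozygotes, although null replicate 1 missed heterozygote replicate 1 by little. The mean difference was -1.29 (SE 0.64, 2.45-fold lower), with limma adjusted p = 0.974 in the untrended fit. It was -0.89 without heterozygote replicate 2 and -0.81 without null replicate 2.

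The enzymes that follow Alas2 serve heme synthesis in other cells too. Cpox, which makes protoporphyrinogen, had 7.24 and 7.19 in heterozygotes and 6.41, 6.49 and 7.03 in nulls (difference -0.57, SE 0.38). A dimmer Cpox probe set, 1422492_at, had 6.22 and 5.84 against 5.11, 4.83 and 4.58 (difference -1.19, SE 0.38, limma untrended adjusted p = 0.802), and 1440747_at, not above background in heterozygotes, gave 0.52. Uros and Fech, of which Fech inserts the iron, were also lower on every null array, with differences of -0.32 and -0.22 that are smaller than their SEs of 0.35 and 0.33. The groups overlapped at Uros 1440535_at (-0.043) and at Fech 1449181_at (-0.13) and 1418698_a_at (-0.65). Fech 1427696_at was not above background on any array. Alad, an early enzyme, had -0.30 with overlapping groups, and 0.74 at its other probe set. Urod, of the middle of the pathway, had 0.081 and turned to -0.075 with median centring, and its probe set 1417206_at gave -0.24 with overlapping groups. Ppox, the enzyme before Fech, was higher on every null array (difference 0.45, SE 0.36), an order that 9.82% of all genes showed. At its probe set 1448065_at the groups overlapped (1.43, SE 1.14), and 1441862_at, not above background on any array, gave -0.43. Pairing each null with each heterozygote array gave 6 pairings. At brightest probe sets, 4 heme genes were lower in all 6 (57.1%, against 10.1% of all genes). Ppox alone was higher in all 6 (14.3%, against 9.82%).

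Of the 9 measured membrane and skeleton genes, 2 were lower in all 6 pairings (22.2%, against 10.1% of all genes). By mean, 7 were lower and 2 higher in nulls, with a median difference of -1.36. Leaving out heterozygote replicate 2 brought this median to -0.52, and leaving out replicate 1 brought it to -2.10. Ermap, which encodes an immunoglobulin-family protein of the erythroid membrane, had the lowest p of all members (0.00528 before adjustment in limma's untrended fit). It gave 6.53 and 7.58 in heterozygotes and 5.05, 4.58 and 4.86 in nulls. The nulls lay close together, and the gap to the nearer heterozygote was wider than their whole range. Heterozygotes averaged 7.06 ± 0.74 (SD, n = 2), against 4.83 ± 0.23 (SD, n = 3) for nulls, 4.68-fold lower (difference -2.23, 95% confidence interval -3.44 to -1.02). Its limma adjusted p was 0.485 untrended and 0.254 trended. The difference ranged from -1.70, without heterozygote replicate 2, to -2.75, without heterozygote replicate 1.

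Slc4a1, the chloride-bicarbonate exchanger band 3 that anchors the membrane to its skeleton, had 5.73 and 7.40 in heterozygotes and 4.83, 5.36 and 5.43 in nulls (difference -1.36, SE 0.62, limma untrended adjusted p = 0.948). Heterozygote replicate 1 was only slightly above the nulls, and without replicate 2 the difference was -0.52. At its probe set 1416464_at the groups overlapped (difference -0.71, SE 0.79). At 1431743_a_at, above background on 1 heterozygote array and no null array, the difference was -2.32 (SE 1.16) without overlap. Kel, the Kell blood group protein, had 4.87 and 6.09 against 5.04, 3.03 and 3.88, so that null replicate 1 lay between the heterozygotes (difference -1.49, SE 0.76). It was -0.88 without heterozygote replicate 2 and -2.10 without replicate 1.

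Rhag and Rhd, the Rh-associated glycoprotein and an Rh protein, were near background on several arrays. Rhag had 4.09 and 3.32 in heterozygotes and 1.56, 3.58 and -1.90 in nulls, a spread that left the difference of -2.62 with an SE of 1.66. With values below background raised to it, this difference was -0.46, and without null replicate 3 it was -1.13. Rhd had 3.28 and 4.89 against 3.38, 1.47 and 1.16 (difference -2.08, SE 0.90), which was -0.88 with values raised to background and -1.28 without heterozygote replicate 2. In both genes 1 null array overlapped the heterozygotes.

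Among skeleton genes, Epb42, encoding protein 4.2, had a difference of -0.63 (SE 0.52), with -0.37 without null replicate 2 and -0.997 without null replicate 1, and Sptb, the erythroid β-spectrin, one of -0.50 (SE 0.42), both with overlapping groups. Their other probe sets went the opposite way without overlap, Epb42 at 1417338_at by 1.70 (not above background in heterozygotes) and Sptb at 1455226_at by 0.47. Gypc, glycophorin C, had 0.042 and turned to -0.057 with median centring. Ank1, ankyrin, which links spectrin to band 3, had 0.36 (SE 0.36) at its brightest probe set but -2.17 and -2.18 at 1425677_a_at and 1452512_a_at, each above background on 3 arrays. A further Ank1 probe set, 1443291_at, gave -0.10 with overlapping groups.

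**Figure D2:**
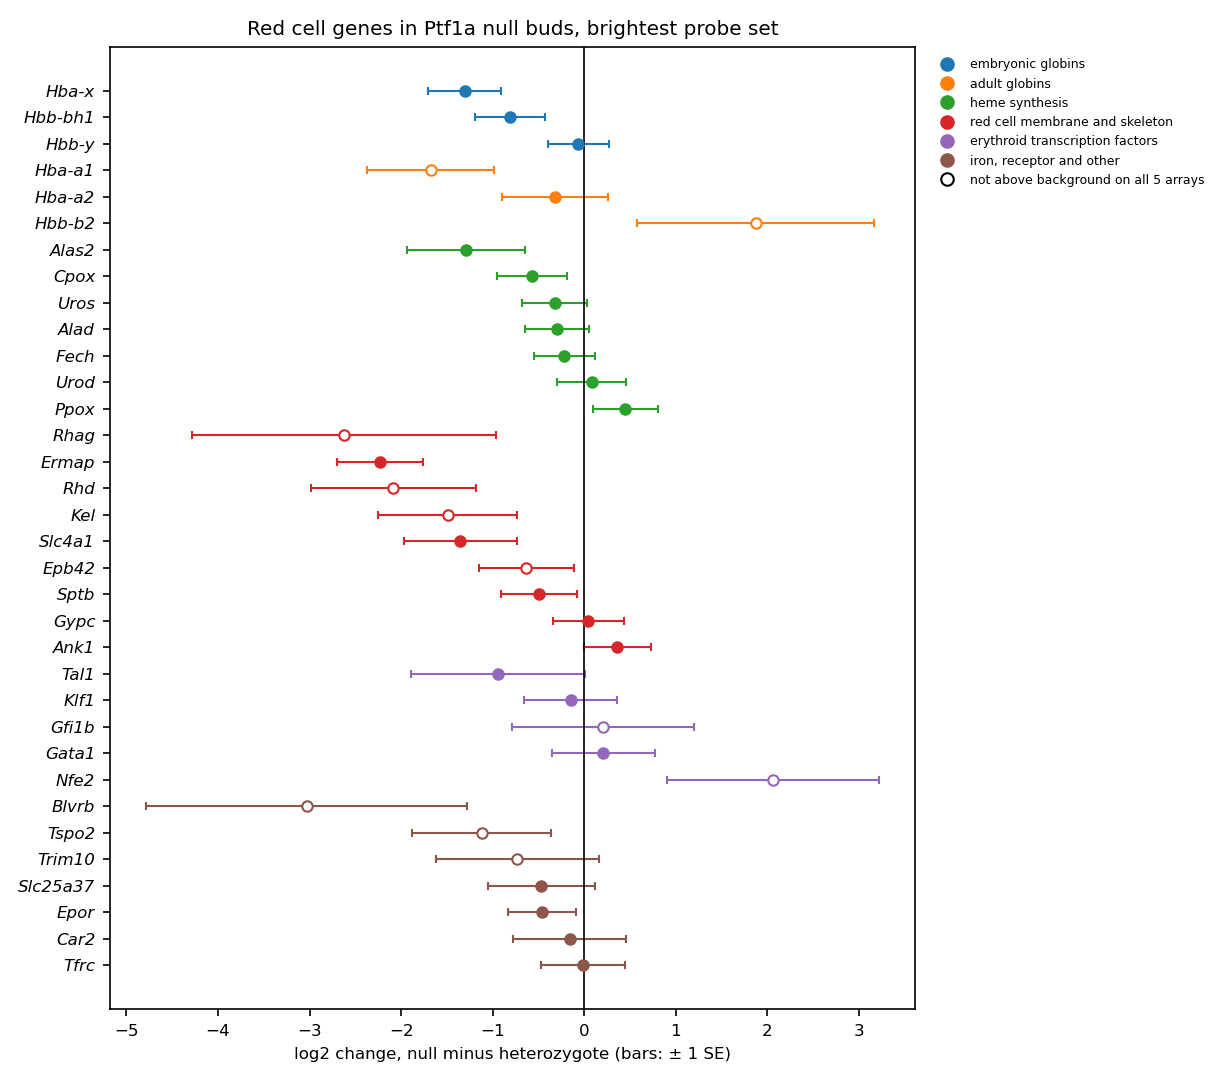
Difference in log2 signal, null minus heterozygote (horizontal axis), for each of the 34 genes at its brightest probe set, grouped by role and colour, with bars of 1 SE from the untrended fit. Open circles mark genes not above background on all 5 arrays. Most points lie left of 0, among them Ermap (-2.23) and Hba-x (-1.31), while transcription factors lie on both sides. No gene passed adjustment.

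Of the 5 transcription factors, 2 had a lower and 3 a higher mean in nulls, with a median difference of 0.20. None was lower or higher in all 6 pairings, against 10.1% and 9.82% of all genes. The median turned to -0.086 without null replicate 3. Gata1, the central factor of the lineage, had 3.08 and 4.51 in heterozygotes and 4.19, 4.22 and 3.62 in nulls (difference 0.21, 95% confidence interval -1.25 to 1.67). Klf1, which activates adult and embryonic globin genes, had 4.29 and 3.78 against 4.56, 3.34 and 3.76 (difference -0.15, 95% confidence interval -1.47 to 1.17). Tal1, a partner of Gata1, had 3.79 and 6.50 against 3.52, 4.95 and 4.14, a difference of -0.94 that turned to 0.42 without heterozygote replicate 2. Nfe2, a globin activator, and Gfi1b, a repressor of the lineage, were not above background on 3 of 5 arrays each. Nfe2 was above it on 2 null arrays and on neither heterozygote, so its baseline was not measured, and with values raised to background its difference was 0.40. For Gfi1b that value was 0.047. These intervals are wide, and that of Klf1 includes a difference as large as that of Hba-x.

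All 7 genes of iron handling, signalling and late red cell functions had a lower mean in nulls, with a median difference of -0.47. Epor alone was lower in all 6 pairings (14.3%, against 10.1% of all genes). Without heterozygote replicate 2, 3 of the 7 were lower and the median was 0.19, and without replicate 1 it was -0.92. Tfrc, the transferrin receptor, which all dividing cells carry, had 8.06 and 9.08 in heterozygotes and 8.76, 8.38 and 8.53 in nulls (difference -0.011, 95% confidence interval -1.19 to 1.17). Its probe set 1422967_a_at had -1.56 without overlap, and 1422966_a_at had -0.32 with overlap. Slc25a37, mitoferrin, the mitochondrial iron importer of red cells, had a difference of -0.47 (SE 0.58), or 0.19 without heterozygote replicate 2. For Car2, carbonic anhydrase, it was -0.16 (SE 0.62). Epor, the erythropoietin receptor, had 4.22 and 4.68 against 3.88, 4.18 and 3.91, lower on every null array (difference -0.46, SE 0.37).

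Blvrb, biliverdin reductase B, had 4.67 and 4.55 in heterozygotes and 4.97, -0.40 and 0.16 in nulls. Null replicate 1 was the highest of the 5 arrays, and the other nulls were below background. The difference of -3.03 (SE 1.75) rests on those values: it was -0.87 with values raised to background and -4.73 without null replicate 1. Trim10 and Tspo2, late erythroid genes, were above background on 1 heterozygote array each and on 1 and 0 null arrays, and had overlapping groups. The difference was -0.73 (SE 0.89) for Trim10. With values raised to background it was -0.63 for Trim10 and -0.077 for Tspo2.

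Over all 34 genes, 26 had a lower and 8 a higher mean in nulls, with a median difference of -0.47. Over all 18193 genes the median was -0.012, and 50.9% had a lower mean. Of the 34, 23 were above background on all arrays and 2 on none, and among the 23 a lower mean was found for 18. Of the members, 10 were lower in all 6 pairings (29.4%, against 10.1% of all genes) and 1 was higher in all 6 (2.94%, against 9.82%). Hba-a1, counted among the 10, was above background on no array. The other 9 were among the 23 members above background on all arrays (39.1%, against 9.98% of all genes so measured). Limma called 0 members in the untrended fit, where 0% of all probe sets were called, and 0 in the trended fit, where 0.0178% were. An unadjusted p under 0.05 with lower signal in nulls was found for 2 of the 34 in the untrended fit, Ermap and Hba-x, against 1.97% of all genes. In the trended fit it was found for 7 of the 34, against 1.95% of all genes. These were Hbb-bh1, Hba-x, Alas2, Ermap, Slc4a1, Kel and Blvrb, of which Kel and Blvrb were not above background on all arrays.

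The arrays of a genotype were not alike. Taken as the median over the 34 genes of each gene's deviation from its own mean, red cell signal stood at 0.066 and 0.55 in the 2 heterozygotes, in replicate order, and at 0.021, -0.31 and -0.31 in the 3 nulls. Heterozygote replicate 1 and null replicate 1 were thus nearly level. For the 28 members that are no globins null replicate 1 (0.19) was above heterozygote replicate 1 (0.066). For the embryonic globin probe sets the order held, with 0.18 and 0.76 in heterozygotes and -0.059, -0.30 and -0.47 in nulls.

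Heterozygote replicate 2 was above replicate 1 for 25 of the 34 genes, by a median of 0.44, against 0.018 over all genes. That gap between arrays of 1 genotype is close in size to the median difference between genotypes. Without heterozygote replicate 2 the median over members was -0.25, 21 of 34 were lower, and 12 were lower in every remaining pairing, against 25% of all genes. Without heterozygote replicate 1 these were -0.67, 25 of 34, and 23, against 27.8%. The median was thus below 0 against either heterozygote alone, and on all arrays about as large as the gap between them.

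**Figure D3:**
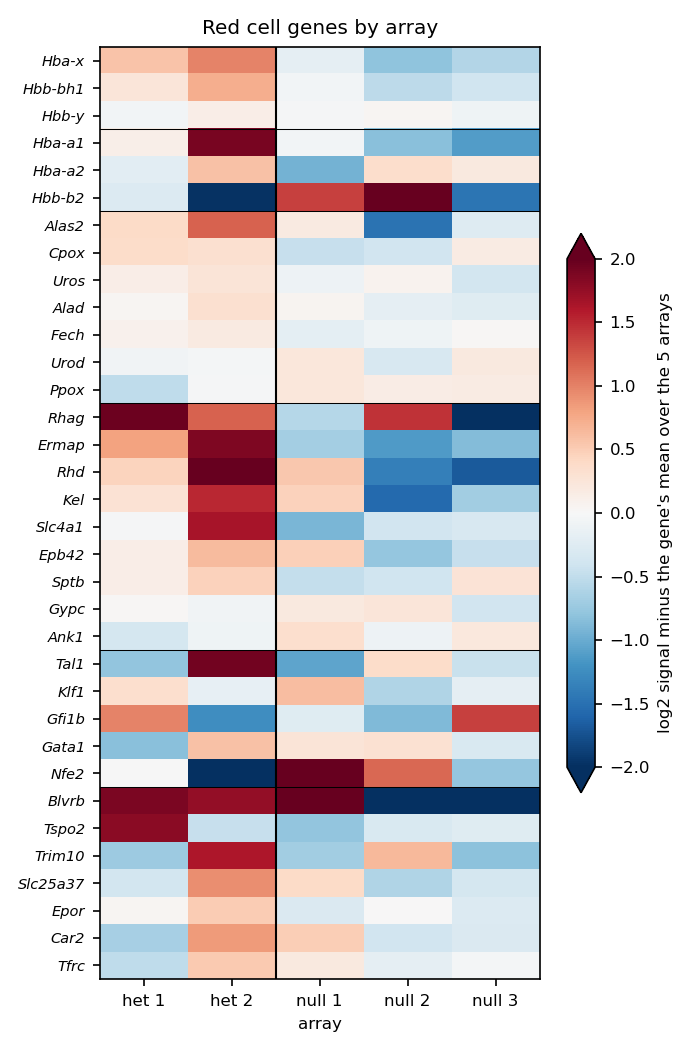
Log2 signal of each of the 34 genes on each array minus that gene's mean over the 5 arrays (colour, red above and blue below, clipped at 2), with heterozygotes left and nulls right of the vertical line and horizontal lines between the roles. Heterozygote replicate 2 is the reddest column (median 0.55), null replicates 2 and 3 the bluest (-0.31 each), and null replicate 1 (0.021) resembles heterozygote replicate 1 (0.066).

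A further 56 genes of heme, iron, membrane, regulation and red cell metabolism, of which 50 were measured, gave 36 with a lower and 14 with a higher mean in nulls. Their median difference was -0.30, and it was -0.19, with 30 lower, without heterozygote replicate 2. In all 6 pairings 10 were lower (20%, against 10.1% of all genes) and 2 higher (4%, against 9.82%). By role, a lower mean was found for 7 of 10 heme and iron genes, 7 of 11 membrane and skeleton genes, 12 of 15 regulators and 10 of 14 enzymes and late genes. Many of them are also made by cells other than red cells. Among those above background on all arrays of at least 1 group, the 6 widest differences were Hmox1 (2.26), Ube2l6 (-1.85), Hemgn (-1.54), Xk (-1.40), Pim1 (-1.26) and Sox6 (-0.92), and none passed adjustment.

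Hemgn, a nuclear protein of erythroid cells, had 5.29 and 7.80 in heterozygotes and 5.27, 4.61 and 5.14 in nulls. Heterozygote replicate 2 stood far above the other arrays, and replicate 1 was level with null replicate 1. Hmox1, the heme-degrading enzyme, had 3.50 and 0.40 against 4.13, 4.06 and 4.45, the only one of these 6 genes with higher signal in nulls. It was above background on 1 of the 2 heterozygote arrays.

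Markers of other cells were read on the same arrays. Of 13 leukocyte and macrophage markers 10 had a lower mean in nulls, with a median difference of -0.51, or -0.95 without heterozygote replicate 1. By array their median deviation was 0.28 and 0.68 in heterozygotes and 0.031, -0.39 and -0.19 in nulls, and their summed linear signal was 155 and 312 against 136 to 207. Only 2 of the 13 were above background on all arrays, Csf1r and Cd68, with differences of -0.035 and 0.012, and Laptm5, the next in brightness, had -0.65.

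For vessel and platelet markers the median deviations of the groups overlapped. Each list held 1 gene lower and 1 higher in all 6 pairings, Eng and Robo4 for vessels and Gp6 and Gp1bb for platelets. These were 7.14% of vessel and 10% of platelet markers each way, against 10.1% lower and 9.82% higher over all genes. The 14 endothelial markers, among them Plvap, Egfl7 and Tek, had a median difference of 0.069, with deviations of 0.53 and -0.25 in heterozygotes and -0.40, 0.046 and 0.63 in nulls. Their summed signal was 455 to 705 in heterozygotes and 403 to 768 in nulls. Heterozygote replicate 2, highest for red cell genes, was thus below replicate 1 for endothelium, and null replicate 3, low for red cell genes, was the highest. Without heterozygote replicate 2, 13 of the 14 were lower and the median was -0.27, and without null replicate 3 it was -0.13. The 10 megakaryocyte and platelet markers, among them Itga2b, Pf4 and Itgb3, had a median difference of -0.25, which turned to 0.048 without heterozygote replicate 1 and was -0.67 without null replicate 3, and were likewise highest on null replicate 3 (0.82), with summed signals of 221 to 244 in heterozygotes and 104 to 405 in nulls.

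Mesenchyme markers, among them Col3a1, Pdgfra and Col1a2, had a higher mean in nulls for 13 of 15 genes, with a median difference of 0.56. Without heterozygote replicate 2 it was 0.80, with 6 of 15 lower. Their deviations were -0.28 and -0.50 in heterozygotes and 0.66, 0.025 and 0.31 in nulls, with summed signals of 785 to 1022 against 1079 to 1441. Of the 15 mesenchyme markers, 6 were higher in all 6 pairings (40%, against 9.82% of all genes) and 0 were lower. Among those 6, Nkx3-2 and Osr1 were above background on neither heterozygote. Only 6 of the 15 markers were above background on all arrays. Col3a1, Pdgfra and Col1a2 were among them, Col3a1 at 7.82 to 9.23, although mesenchyme had been dissected away. How much mesenchyme remained was not tested. Hepatoblast markers, among them Ttr, Afp and Hnf4a, had a higher mean for 6 of 8 genes, with a median difference of 0.38 and summed signals of 4285 to 5905 against 6293 to 6492. That median was 0.15 without heterozygote replicate 1 and 0.73 without replicate 2. Most of these sums came from Ttr, at 11.95 and 12.33 in heterozygotes and 12.37, 12.27 and 12.39 in nulls. Whether the hepatoblast markers were read from liver cells or from the bud itself was not tested. Bud epithelium markers had a median difference of -0.13 with 7 of 11 lower, and summed signals of 5977 to 9140 against 7762 to 9824. It turned to 0.061, with 4 of 11 lower, without heterozygote replicate 2, and was -0.52 without replicate 1. The part of these other cells in the red cell result was not tested.

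**Figure D4:**
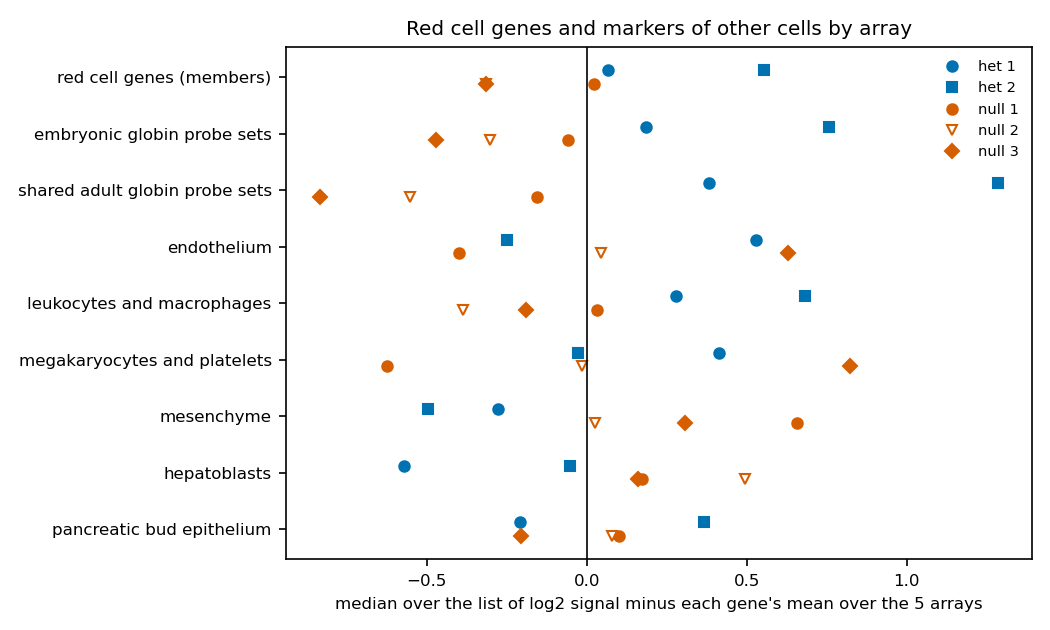
Median over each gene list of log2 signal minus the gene's mean over the 5 arrays (horizontal axis), for red cell genes, globin probe sets and markers of other cells (rows). Blue symbols are heterozygote arrays and orange symbols null arrays. Both heterozygotes lie right of every null for the first 3 rows and for leukocytes, left of every null for mesenchyme and hepatoblasts, and mixed with the nulls for endothelium, platelets and epithelium.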

How the data were processed

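Affymetrix Mouse Genome 430 2.0 arrays were hybridised with RNA amplified in 2 rounds from oligo(dT). The authors deposited 1 linear intensity per probe set and array, per the labels. The submitters' processing notes list GCOS and RMA, without saying what each was used for. The values were taken to log2 with no offset and quantile normalised across the 5 arrays (limma 3.58.1, R 4.3.3), leaving out 64 control probe sets. Background was the 95th percentile of 27 bacterial control probe sets on each array. Of 45037 probe sets, 34945 had 1 gene symbol, 932 several and 9160 none. Genotypes were compared with lmFit and eBayes, untrended, with a trended robust fit as an alternative. With 2 against 3 arrays an exact permutation test cannot go below p = 0.1. The number of arrays limits the precision. Every member was named; of the further red cell genes the 6 with the widest difference above background in a group, and of other cell types the 3 brightest, were named or counted. Members and lists were chosen with earlier results of these data known. The fit was tested on simulated data.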

Additional observations from a re-analysis of the deposited data

How the results depend on the processing

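No member passed adjustment under any of the 13 alternatives, and the median difference over the 34 genes stayed below 0 in all of them, from -0.67 without heterozygote replicate 1 to -0.25 without heterozygote replicate 2. With the trended fit, 8 of 45037 probe sets passed adjustment, 3 of them lower in nulls and none a member, where 0 passed in every other setting. Leaving out 1 array gave between 11 and 23 of 34 members lower without overlap, with fewer pairings to satisfy. Without null replicates 1, 2 and 3 these were 16, 11 and 11, against 16.7%, 15.8% and 16.6% of all genes. Without heterozygote replicates 1 and 2 they were 23 and 12, against 27.8% and 25%. Median centring and no normalisation moved the median of all genes to -0.095 and -0.14 and that of the members to -0.53 and -0.57. Other medians were -0.26 with an offset of 16, -0.32 with values raised to background, -0.46 without dim probe sets and -0.44 over the mean of a gene's probe sets.

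Of 498 member values under alternatives, 34 changed sign, and 22 of the 39 member results changed sign in none. No member passed adjustment in any setting, whether or not its sign changed. With median centring Urod was -0.075 and Gypc -0.057, and with no normalisation -0.12 and -0.10. Hbb-b2 1427865_at was -0.060 with values raised to background, the same value as for Hba-a1 and Hbb-b2 1427866_x_at and for the median of all genes, since none of the 3 was above background on any array and the value is only the difference in background levels. The mean over a gene's probe sets gave 0.22 for Alad, -0.078 for Urod, 0.53 for Epb42 and -1.02 for Ank1. Leaving out 1 array gave ranges of -0.49 to 0.13 for Klf1, -0.50 to 0.92 for Gata1, -2.26 to 0.020 for Tspo2, -0.16 to 0.028 for Hbb-y 1436717_x_at, -0.72 to 0.086 for Hba-a2 1427219_at, -0.067 to 0.24 for Gypc. Further such ranges were -2.30 to 0.42 for Tal1, -0.91 to 1.32 for Gfi1b, -0.52 to 0.50 for Tfrc, -1.12 to 0.19 for Slc25a37, -0.92 to 0.61 for Car2, -1.90 to 0.44 for Trim10, -0.014 to 0.26 for Urod. The range for Tspo2 is of values at or near background, above it on 1 array. An offset of 16 brought Rhag to -0.52, Rhd to -0.72, Blvrb to -0.76 and Nfe2 to 0.48. The cause of these sign changes was not tested.

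After group means were taken out, same-numbered arrays correlated at -0.017 and 0.0080 over all probe sets. With 2 heterozygotes the deviations are equal and opposite, so these values cannot settle whether replicate numbers pair the samples. Whether same-numbered pools share a litter was not tested. With a replicate block the median over members was -0.45 and 0 members were called, and Urod was -0.0032, Gfi1b -0.44 and Tfrc 0.0049. Signals near background and the 2 heterozygote arrays limit what these values can show.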
